A study of Mus musculus with 5 samples.

Results

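Retinoic acid pathway genes were followed in 5 mouse embryos in which Oct4 had or had not been deleted. The genes are Rara, Rarg, Rxra, Aldh1a2, Cyp26a1, Dhrs3, Crabp1, Crabp2 and Stra6, taken by name from a table of read counts. They are 9 of the 49671 genes counted. RNA was sequenced from 3 SO- embryos, which carried Sox2Cre+/- with Oct4 fl/-, and from 2 SO+ embryos, labelled WT, which carried Sox2Cre-/- with Oct4 fl/+. Every embryo therefore had a floxed Oct4 allele on a mixed strain background, and the genotypes differed in Cre, in the second Oct4 allele and in the deletion. All were collected at about E6.75, when gastrulation is under way. Each library came from 1 embryo without its extra-embryonic ectoderm (ExE), so that it held epiblast together with visceral endoderm (VE). Sox2Cre acts mainly in the epiblast, and VE cells are expected to keep the floxed allele.

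Retinoic acid is a signal made from vitamin A. Cells take up retinol through the receptor Stra6, and oxidise it first to retinaldehyde and then to retinoic acid, the last step being carried out in the early embryo mainly by Aldh1a2. Dhrs3 reverses the first step, and the Cyp26 enzymes degrade the finished signal. Crabp1 and Crabp2 carry retinoic acid inside the cell, and pairs of a retinoic acid receptor (RAR) and a retinoid X receptor (RXR) bind DNA at direct repeats of a short half-site. Cyp26a1 is both the enzyme that keeps retinoic acid away from the gastrulating embryo and a classical target of the signal, through such a repeat in its promoter.

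Promoter sequence is shown for Cyp26a1 because it was by far the most abundant of the 9 genes and the one with the lowest p. RefSeq windows of GRCm38.p6, from 250 bases before to 50 bases after each start, held 18 windows for 8 of the 9 genes and none for Crabp2. They were searched on both strands for 2 half-sites in the same direction, each the common motif AGGTCA, the related motif AGTTCA, the motif GGGTCA that starts with 3 G bases or the motif GGTTCA that starts with 2 of them, with 1 base (DR1), 2 bases (DR2) or 5 bases (DR5) between them. Cyp26a1 alone of the 8 genes held one, a DR5 on chromosome 19 from 37697776 to 37697792, which is 32 to 16 bases before the RefSeq start. The 240 bases before the start that GENCODE gives, at chr19:37697558-37697797 on the plus strand, are given with the DR5 in capitals. It reads on the opposite strand to the gene.
Cyp26a1 upstream: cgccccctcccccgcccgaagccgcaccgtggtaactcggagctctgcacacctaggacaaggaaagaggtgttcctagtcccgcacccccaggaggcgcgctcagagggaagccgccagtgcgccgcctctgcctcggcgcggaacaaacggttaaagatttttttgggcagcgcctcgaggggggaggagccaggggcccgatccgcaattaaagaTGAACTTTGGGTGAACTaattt

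Among the other retinoid genes examined, Rarb held a DR5 from 16575513 to 16575529 on chromosome 14, and Bco1, which cleaves carotene into retinaldehyde, a DR1 from 117095809 to 117095821 on chromosome 8. The 3 elements are set side by side, each 5′ to 3′ on its own strand, with the half-sites in capitals.
Cyp26a1 DR5: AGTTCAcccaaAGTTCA
Rarb DR5: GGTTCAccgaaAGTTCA
Bco1 DR1: AGGTCAaAGGTCA
The second half-site of both DR5 elements has the same letters. Of 32851 windows in the whole table, 0.0974% held a DR5, 0.222% a DR1 and 0.268% a DR2. These matches describe letters in a window, and no measurement of receptor binding was made.

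Read counts summed to 27047148 and 27538119 in the SO+ embryos and to between 1117566 and 4191498 in the SO- embryos, so that 3 counts stood for 0.109 CPM (counts per 1000000 of the scaled library) in SO+ embryo 1 and for 2.68 CPM in SO- embryo 2. Pou5f1, the gene of Oct4, fell from 919.5 and 437 CPM in the SO+ embryos to between 12.5 and 44.1 CPM in the SO- embryos (log2 fold change -4.43, standard error 0.33, edgeR adjusted p = 3.94e-05). Of the cell type marker lists, only the epiblast list had sums that did not overlap between genotypes. The 16 VE markers summed to 5152 and 5412 CPM in the SO+ embryos and to 4851 to 7515 CPM in the SO- embryos, with none at 0. SO- embryo 3 was the lowest. Of the 16, 15 were on the higher side in SO- embryos, against 5997 of all 12067 genes tested. Only Sox17 passed the test, and it rose (1.33, standard error 0.30, edgeR adjusted p = 0.0365). Sox17 is also the paper's marker of committed definitive endoderm, which it reports in SO- epiblast at E7.5. The 8 epiblast markers summed to 6037 and 4843 CPM in the SO+ embryos against 2186 to 3288 CPM in the SO- embryos, and besides Pou5f1 the DNA methyltransferase Dnmt3b (-0.99, standard error 0.15, edgeR adjusted p = 0.00392) and the chromatin factor Utf1 (-2.08, standard error 0.23, edgeR adjusted p = 4.06e-04) fell. In all, 5 of these 8 were on the lower side in SO- embryos and 3 on the higher, Fgf5 (0.38), Sox2 (0.56, without overlap) and Nanog (0.02), none of which passed the test, and Dnmt3b made up most of the sum. The 5 include Pou5f1, the deleted gene itself. Markers of ExE stayed between 15.6 and 24.1 CPM in sum, of nascent mesoderm and streak between 469 and 751 CPM, of decidua between 11.0 and 18.3 CPM with Prl8a2 at 0, and of leukocytes and blood at 1.93 CPM or below with Ptprc, Tyrobp, Hbb-bs and Hbb-bt at 0. None of those 4 lists held a called gene. The part of cell composition in the retinoid values was not tested, and in these bulk samples fewer cells of a type and less RNA per cell cannot be told apart. The second index of the libraries also differed with genotype, and the 2 cannot be told apart.

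Most of the pathway genes overlapped between genotypes, Cyp26a1 was higher and Crabp1 lower in all SO- embryos, and none passed the test. Of the 9 genes, 8 were expressed highly enough to be tested, each in at least 2 embryos of both genotypes, and Aldh1a2 was not. By edgeR's quasi-likelihood test 0 of the 8 passed an adjusted p of 0.05, against 283 of all 12067 genes tested (2.35%), and 0 passed by DESeq2 (381 of 15021 genes, 2.54%) or limma-voom (91 of 12067, 0.754%). At an unadjusted p under 0.05 there were 2 genes, Cyp26a1 and Crabp1, or 25% against 13.7% of all genes. The same 2 genes were the ones whose CPM did not overlap between genotypes, against 29.3% of all genes. The median log2 fold change of the 8 genes was -0.18, and that of all genes -0.0019, with 1 gene on the higher side in SO- embryos and 7 on the lower.

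**Figure D1:**
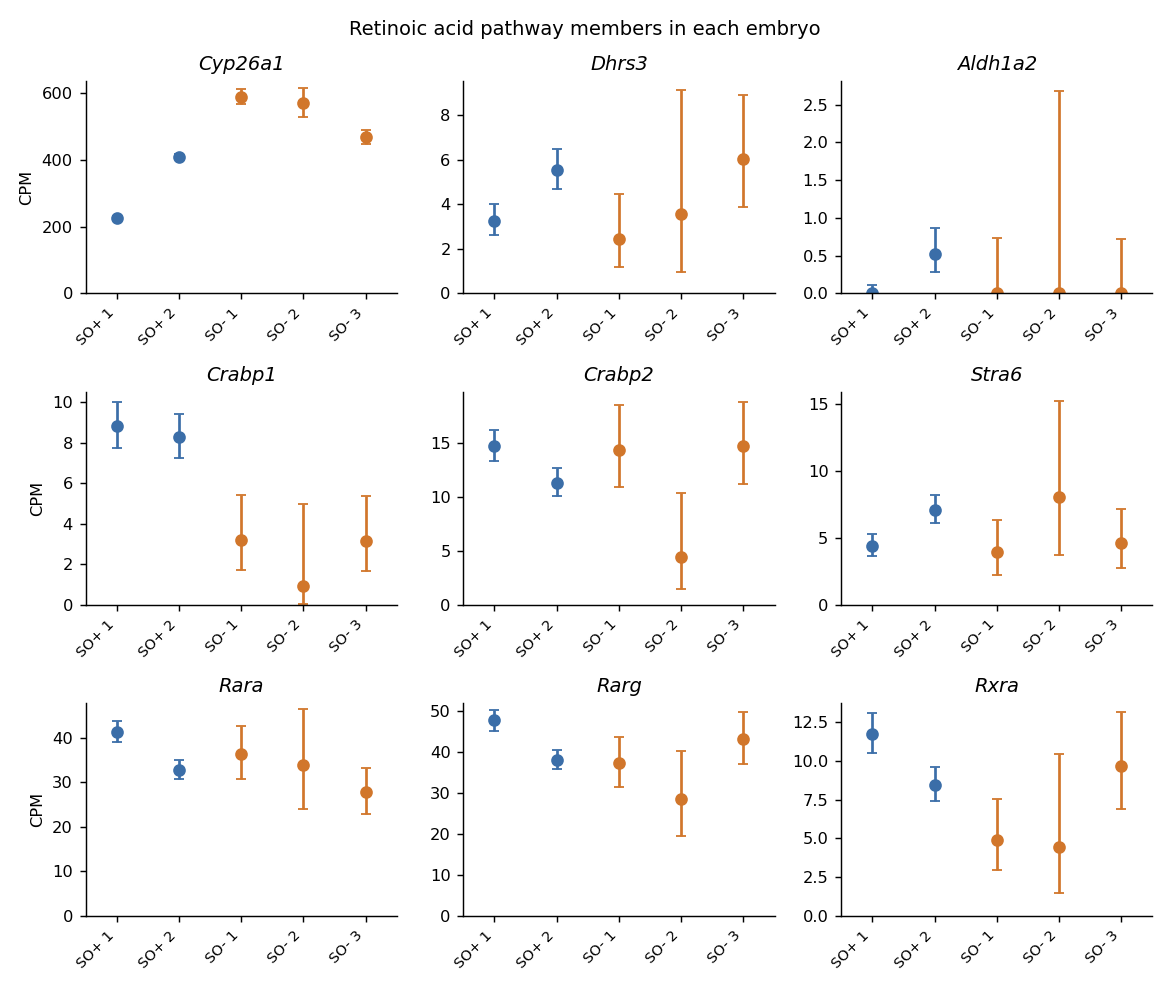
Level of each of the 9 genes in each embryo, in CPM on linear axes that start at 0, with SO+ embryos in blue and SO- embryos in orange. Bars are exact Poisson 95% intervals (for a count of 0, up to 3 counts) and cover counting error only. Cyp26a1 was higher in all 3 SO- embryos and Crabp1 lower, whereas the other genes overlapped between genotypes or, for Aldh1a2, had counts in 1 embryo.

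Among the 9 genes, the degrading enzyme Cyp26a1 was the most strongly expressed. Cyp26a1 (ENSMUSG00000024987, chromosome 19 from 37697798 to 37701536) had 6266 and 11048 counts in SO+ embryos 1 and 2, and 2423, 640 and 1939 in SO- embryos 1, 2 and 3. In CPM this was 227 and 410.1 in the SO+ embryos, against 590.3, 571 and 468 in the SO- embryos. Every SO- embryo stood above both SO+ embryos, and the highest SO+ embryo lay closer to the lowest SO- embryo than to the other SO+ embryo. The log2 fold change was 0.77 (standard error 0.20), or 1.70-fold, with an unadjusted p of 0.00183 and an adjusted p of 0.0638 in edgeR, 0.325 in DESeq2 and 0.249 in limma-voom. Cyp26a1 therefore did not pass the threshold. Each SO+ embryo decided this value, since the log2 fold change was 0.40 without SO+ embryo 1 and 1.25 without SO+ embryo 2, where the edgeR adjusted p was 1.59e-06.

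The SO+ embryos differed 1.80-fold in Cyp26a1, which placed it at percentile 96.5 of 9304 genes of mean log2 CPM of at least 3, whose median was 1.14-fold. The SO- embryos differed 1.26-fold, against a median gene of 1.30-fold. Some streak and early mesoderm genes also differed between the SO+ embryos, given here as embryo 1 and then embryo 2. Mesp1, a factor of nascent mesoderm, was at 20.9 and 63.5 CPM, Lhx1 at 41.9 and 114.7 CPM and Mixl1 at 158.8 and 282.4 CPM, whereas T was at 38.6 and 35.6 CPM and Eomes at 209 and 253 CPM. In SO- embryos Mesp1 was between 27.2 and 28.0 CPM and Lhx1 between 96.2 and 126.7 CPM. The summed streak and mesoderm list was 469 and 751 CPM in the SO+ embryos and 518 to 657 CPM in the SO- embryos, and the part of stage or of cell composition in Cyp26a1 was not tested.

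Cyp26c1, a second enzyme that degrades retinoic acid, neighbours Cyp26a1 on chromosome 19 (37685581 to 37693398, same strand) and was one of the retinoid genes outside the 9 that passed the test. It had 2 and 5 counts in the SO+ embryos and 20, 10 and 14 in the much smaller SO- libraries. This came to 0.0726 and 0.186 CPM in the SO+ embryos, whereas the SO- embryos had 4.87, 8.92 and 3.38 CPM. Its counting intervals were 0.00879 to 0.262 and 0.0603 to 0.433 CPM in the SO+ embryos, and the lowest bound in an SO- embryo was 1.85 CPM, so that the intervals of the genotypes did not overlap. Cyp26c1 rose by a log2 fold change of 5.26 (standard error 0.90, edgeR adjusted p = 0.00754, DESeq2 6.57e-07, limma-voom 0.0654). It was expressed highly enough to be tested only through SO- embryos, the side to which its fold change points. The third enzyme, Cyp26b1, had 1 count in all, in SO- embryo 3. Per exon length (FPKM, counts per kilobase of exon and per 1000000 counts), Cyp26a1 made up 99.96% ± 0.0107 (SD, n = 2) of the 3 Cyp26 genes in SO+ embryos and 98.8% ± 0.500 (SD, n = 3) in SO- embryos.

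Aldh1a2 and Dhrs3, which act on the supply of retinoic acid, were low in all embryos. Aldh1a2 (ENSMUSG00000013584, chromosome 9 from 71215789 to 71296243) had 14 counts in SO+ embryo 2, which is 0.520 CPM, and 0 in the other 4 embryos. A count of 0 allowed up to 0.109 CPM in SO+ embryo 1 and up to 0.731, 2.68 and 0.723 CPM in the SO- embryos, by the floor of 3 counts. The level of SO+ embryo 2 lies under each of those SO- limits, so that its absence from SO- embryos was not detectable at this depth. SO+ embryo 2 also had the highest Mesp1 and Mixl1, and it held 46 counts of Tbx6, a gene of paraxial mesoderm, of which the other 4 embryos held 1. Those 46 counts are 1.71 CPM, under the 3-count floor of SO- embryo 2. T was highest in SO- embryo 1, and Lhx1 and Eomes in SO- embryo 2. A link of Aldh1a2 to mesoderm content was not tested. Of the related aldehyde dehydrogenases, Aldh1a1 had no count in any embryo and Aldh1a3 had 21, 16, 6, 0 and 1 counts in SO+ embryos 1 and 2 and SO- embryos 1, 2 and 3. In the same order Aldh1a3 was at 0.762, 0.594, 1.46, 0 and 0.241 CPM, and it was not tested.

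Dhrs3 (ENSMUSG00000066026, chromosome 4 from 144892827 to 144928209) turns retinaldehyde back into retinol. It was at 3.27 and 5.53 CPM in the SO+ embryos and at 2.44, 3.57 and 6.03 CPM in the SO- embryos, the latter on 10, 4 and 25 counts. The genotypes overlapped, with the lowest and the highest embryo both SO-. The log2 fold change was -0.10 (standard error 0.54, edgeR adjusted p = 0.971), and it ranged from -0.65 to 0.32 when single embryos were left out. Rdh10, which makes retinaldehyde from retinol in the embryo, was at 22.6 and 28.6 CPM in the SO+ embryos and at 31.9, 27.7 and 18.1 CPM in the SO- embryos, with a log2 fold change of 0.0010 (standard error 0.26, edgeR adjusted p = 0.999). The most abundant metabolic genes by CPM were Adh5, a general alcohol dehydrogenase, at 366 to 467 CPM, Dgat1, which esterifies retinol, at 39.8 to 50.2 CPM and Rdh11, a retinaldehyde reductase, at 38.4 to 52.4 CPM, and all 3 had an edgeR adjusted p of at least 0.58. In all, 16 metabolic genes besides the 9 were listed and 8 were tested. Of these 1 passed the test, Cyp26c1, or 12.5% against 2.35% of all genes. Cyp26c1 and Bco1 were expressed highly enough to be tested only through SO- embryos, so this share and its direction are not read. Dhrs9, Aldh1a1, Aldh8a1 and Lrat had no counts.

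The uptake receptor was low in all embryos and did not differ beyond its spread. Stra6 (ENSMUSG00000032327, chromosome 9 from 58063788 to 58153996) was at 4.39 and 7.09 CPM in the SO+ embryos and at 3.90, 8.03 and 4.58 CPM in the SO- embryos. The genotypes overlapped, with a log2 fold change of -0.18 (standard error 0.48, edgeR adjusted p = 0.936). Its SO- values rested on 16, 9 and 19 counts.

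Of the intracellular carriers of retinoic acid, Crabp1 was lower in every SO- embryo and Crabp2 overlapped between genotypes, and neither passed the test. Crabp1 (ENSMUSG00000032291, chromosome 9 from 54764748 to 54773110) had 243 and 223 counts in the SO+ embryos and 13, 1 and 13 in the SO- embryos. Its CPM was 8.82 and 8.28 in the SO+ embryos and 3.17, 0.892 and 3.13 in the SO- embryos. The SO+ embryos differed only 1.07-fold and both stood above all SO- embryos. The log2 fold change was -1.64 (standard error 0.46), or 3.11-fold lower, with an unadjusted p of 0.00377 and an adjusted p of 0.0964 in edgeR, 0.196 in DESeq2 and 0.272 in limma-voom, so that Crabp1 did not pass the threshold. It ranged from -1.80 to -1.44 as embryos were left out.

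Crabp2 (ENSMUSG00000004885, chromosome 3 from 87948666 to 87953376), which delivers retinoic acid to the receptors, was at 14.7 and 11.4 CPM in the SO+ embryos and at 14.4, 4.46 and 14.7 CPM in the SO- embryos. The genotypes overlapped, and SO- embryo 2 stood lowest on 5 counts, with an interval from 1.45 to 10.4 CPM. Its log2 fold change was -0.09 (standard error 0.37, edgeR adjusted p = 0.957). Per exon length, Crabp1 was 49.7% and 54.6% of the Crabp1 and Crabp2 total in the SO+ embryos and 26.6%, 24.8% and 26.0% in the SO- embryos. These shares, like those of the other gene families given here, were computed after the values of the genes had been seen and are a description without a test. The share in SO- embryo 2 rests on 6 counts of the pair.

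Extracellular retinol carriers overlapped between genotypes. Rbp4 was at 197 and 265 CPM in the SO+ embryos and at 437, 395 and 206 CPM in the SO- embryos (0.57, standard error 0.24, edgeR adjusted p = 0.301), and its partner Ttr at 257 and 311 CPM against 447, 409 and 262 CPM (0.39, standard error 0.18, edgeR adjusted p = 0.377). In both, SO- embryo 3 lay among the SO+ embryos. Both passed the test in edgeR without SO- embryo 3, and Rbp4 also without SO+ embryo 2. Rbp4, Ttr and the endocytic receptor Lrp2 also stand in the VE marker list, which was highest in SO- embryos 1 and 2 and lowest in SO- embryo 3. Fabp5, which is an intracellular carrier, was between 152 and 204 CPM in all embryos (-0.23, standard error 0.12, edgeR adjusted p = 0.452). Of 7 transport and binding genes listed, 5 were tested and none passed the test.

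**Figure D2:**
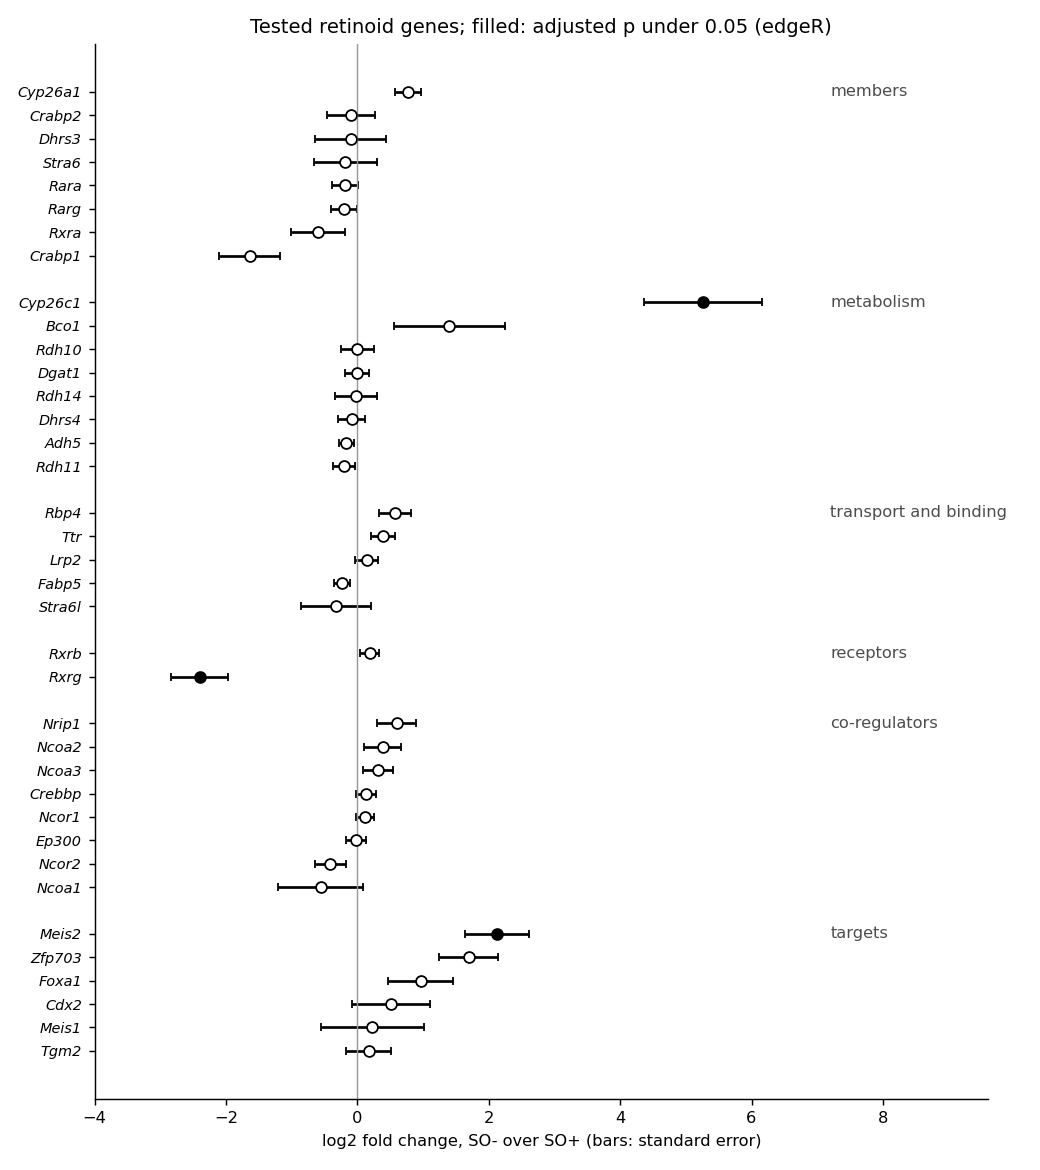
Log2 fold change of SO- over SO+ embryos from edgeR for the 8 tested pathway genes (members) and the 29 other tested retinoid genes, grouped by role. Bars are standard errors, and filled points mark an adjusted p under 0.05 over all 12067 genes. Cyp26c1 and Meis2 rose and Rxrg fell, and no filled point stands among the 8 genes. Cyp26c1 and Meis2 reached the expression filter only through SO- embryos.

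The retinoic acid receptors overlapped between genotypes. Rara (ENSMUSG00000037992, chromosome 11 from 98927818 to 98974942) was at 41.3 and 32.7 CPM in the SO+ embryos and at 36.3, 33.9 and 27.7 CPM in the SO- embryos, a log2 fold change of -0.19 (standard error 0.20, edgeR adjusted p = 0.777). Rarg (ENSMUSG00000001288, chromosome 15 from 102234938 to 102257517) was at 47.8 and 38.2 CPM in the SO+ embryos and at 37.3, 28.6 and 43.2 CPM in the SO- embryos, a log2 fold change of -0.20 (standard error 0.20, edgeR adjusted p = 0.752). In both, SO+ embryo 1 was highest and an SO- embryo lowest. Per exon length, Rara was 45.4% ± 0.315 (SD, n = 2) of the 3 RAR genes in SO+ embryos and 46.5% ± 7.78 (SD, n = 3) in SO- embryos, and Rarg nearly all the rest. Rarb, itself a target of retinoic acid with the DR5 shown above, had 8 and 19 counts in the SO+ embryos and 10, 0 and 3 in the SO- embryos, too few to be tested. Its CPM was 0.290 and 0.705 in the SO+ embryos and 2.44, 0 and 0.723 in the SO- embryos.

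Rxra (ENSMUSG00000015846, chromosome 2 from 27676440 to 27762957), a shared partner of the RARs, was at 11.7 and 8.46 CPM in the SO+ embryos and at 4.87, 4.46 and 9.65 CPM in the SO- embryos. SO- embryo 3 lay between the SO+ embryos and the other 2 SO- embryos lay below both. The log2 fold change was -0.60 (standard error 0.41, edgeR adjusted p = 0.594), with 20, 5 and 40 counts in the SO- embryos.

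Rxrg, another RXR, fell. It had 341 and 313 counts in the SO+ embryos and 12, 3 and 6 in the SO- embryos, or 12.4 and 11.6 CPM against 2.92, 2.68 and 1.45 CPM. No embryo overlapped, and the log2 fold change was -2.40 (standard error 0.44), or 5.27-fold lower, with an adjusted p of 0.0111 in edgeR, 0.00460 in DESeq2 and 0.100 in limma-voom. Of the 8 epiblast markers, 5 were on the lower side in the same embryos and 3 on the higher. Of the 5, Pou5f1, Dnmt3b and Utf1 passed the test, which is 37.5% of the 8 against 2.35% of all genes. Pou5f1 is the deleted gene itself, so its fall is no measure of epiblast content. None of the 3 on the higher side passed. The part of epiblast content in Rxrg was not tested. Rxrb, the most abundant RXR, was at 79.7 and 63.8 CPM in the SO+ embryos and between 80.4 and 83.0 CPM in the SO- embryos (0.19, standard error 0.15, edgeR adjusted p = 0.654). It lies 1.47 Mb from Pou5f1 on chromosome 17, so that alleles carried along with the null Oct4 allele cannot be told apart from the deletion for this gene. Per exon length, Rxrg was 19.5% and 22.3% of the 3 RXR genes in the SO+ embryos and 5.68%, 5.10% and 2.72% in the SO- embryos. The Rxrb share was 71.8% ± 1.31 (SD, n = 2) against 90.4% ± 0.845 (SD, n = 3), and the Rxra share 7.31% ± 0.664 (SD, n = 2) against 5.06% ± 2.23 (SD, n = 3). Rxrg and Rxrb shares did not overlap between genotypes, whereas Rxra shares did. The 3 shares are parts of one total, so those of Rxrg and Rxrb are not independent of each other.

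**Figure D3:**
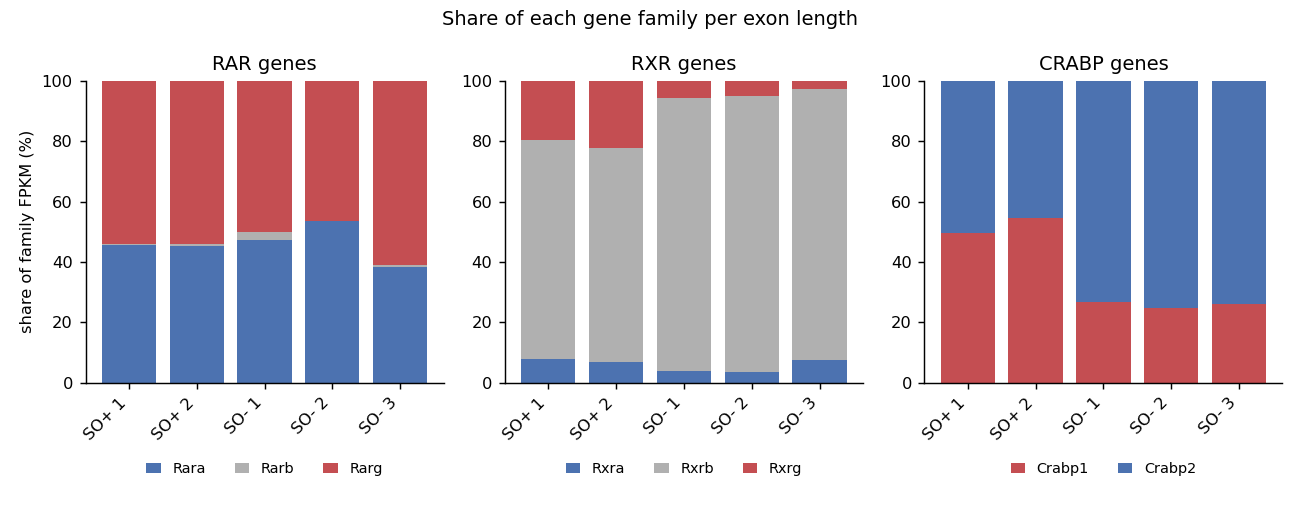
Share of each gene in the summed FPKM of its family (percent, from 0 to 100) in each embryo, for the RAR, RXR and CRABP genes. The RAR bars overlap between genotypes, with Rara at 45.6% and 45.2% in SO+ embryos and at 47.4%, 53.7% and 38.2% in SO- embryos. In SO- embryos the Rxrg share of the RXR genes is 5.68% or less and the Crabp1 share of the CRABP genes 26.6% or less.

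Targets and cofactors of the receptors were examined as the readout of the pathway. Of 17 listed target genes 6 were tested and 1 passed the test, or 16.7% against 2.35% of all genes. Of the 6, 2 (Meis2 and Zfp703) reached the expression filter, which asks for 2.39 CPM in 2 embryos, only through SO- embryos. This share and the direction over the tested targets are therefore not read. Targets below the filter include Cdx1, with 15 and 23 counts in the SO+ embryos and 2, 0 and 1 in the smaller SO- libraries. That came to 0.544 and 0.854 CPM against 0.487, 0 and 0.241 CPM. Nr2f2, also below the filter, was at 0.327 and 0.408 CPM in the SO+ embryos and at 3.41, 1.78 and 0 CPM in the SO- embryos. Neither gene was tested. Meis2, a homeobox factor, had 42 and 101 counts in the SO+ embryos and 50, 13 and 45 in the SO- embryos. Its CPM was 1.52 and 3.75 in the SO+ embryos and 12.2, 11.6 and 10.9 in the SO- embryos, and it rose by a log2 fold change of 2.13 (standard error 0.48, edgeR adjusted p = 0.0357, DESeq2 0.00306, limma-voom 0.0827). Zfp703, a transcriptional repressor, was at 2.29 and 3.19 CPM against 9.26, 7.14 and 9.65 CPM, with a log2 fold change of 1.69 (standard error 0.45) that passed in DESeq2 (adjusted p = 0.0474) and not in edgeR (adjusted p = 0.0771). The most abundant target by CPM was the transglutaminase Tgm2, at 7.66 to 13.4 CPM (0.17, standard error 0.35, edgeR adjusted p = 0.908). Hox targets were barely counted. Hoxa3 had no counts and Hoxb1 had 24 and 49 counts in the SO+ embryos and 12, 0 and 3 in the SO- embryos. For Hoxb1 that is 0.871 and 1.82 CPM against 2.92, 0 and 0.723 CPM, so the genotypes overlapped.

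All 8 co-regulators listed were tested and none passed the test, with a median log2 fold change of 0.12. The acetyltransferases Ep300 (61.6 to 79.8 CPM) and Crebbp (50.5 to 57.6 CPM) and the corepressor Ncor1 (66.9 to 78.4 CPM) were the most abundant, and each had an absolute log2 fold change of 0.13 or less with standard errors of 0.14 to 0.15.

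Over all 51 listed retinoid genes outside the 9, 29 were tested and 3 passed in edgeR, or 10.3% against 2.35% of all genes. Cyp26c1, Meis2, Zfp703 and Bco1 reached the expression filter only through SO- embryos, the side to which their fold changes point, so that this share says nothing of the list as a whole. Of the 3, 2 rose and 1 fell, against 1.42% and 0.928% of all genes. DESeq2 gave 4 and limma-voom 0. Each of the 3 calls depended on single embryos. All were lost without SO- embryo 1 or without SO- embryo 2, Cyp26c1 and Meis2 also without SO+ embryo 1, and Meis2 also without SO- embryo 3. In these fits the adjusted p was between 0.069 and 0.119 for Cyp26c1, 0.0770 and 0.111 for Rxrg and 0.0817 and 0.242 for Meis2, while the direction stayed the same and the log2 fold change stayed between 4.74 and 5.95 for Cyp26c1, -2.75 and -2.08 for Rxrg and 1.61 and 2.91 for Meis2 as each embryo was left out. Without SO- embryo 1 or 2, the calls over all genes also dropped, to 46 and 35.

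**Figure D4:**
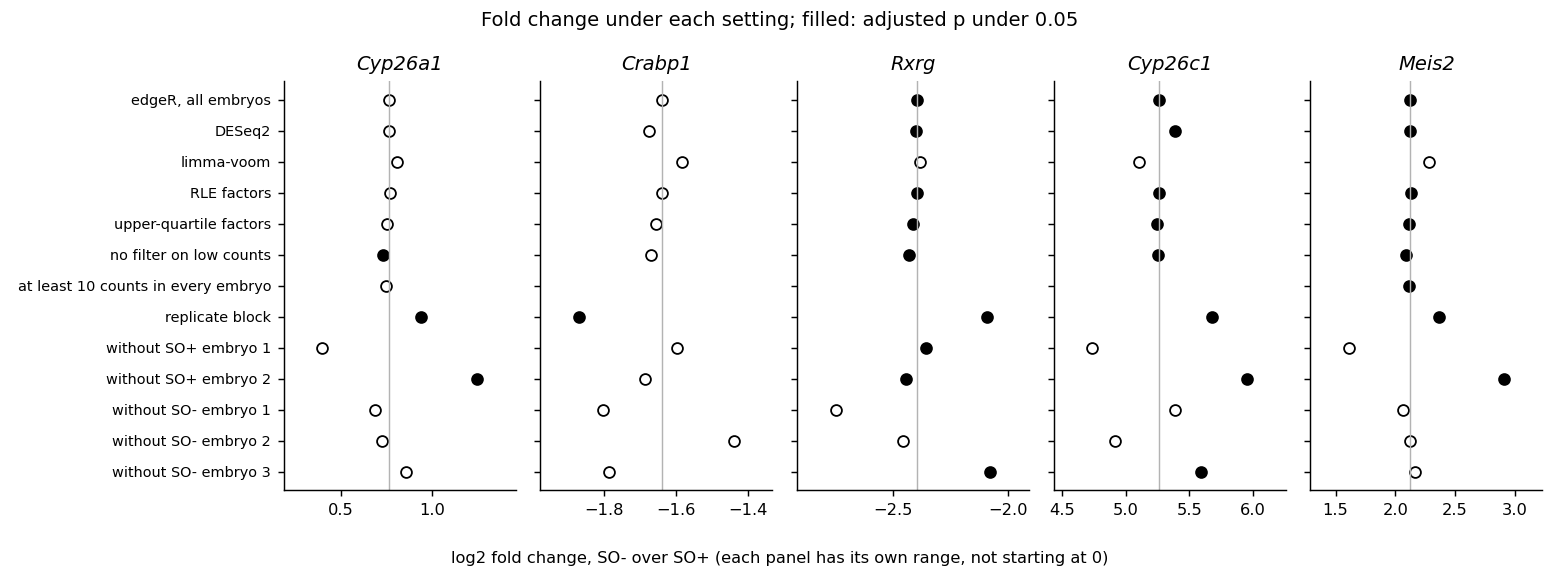
Log2 fold change of SO- over SO+ embryos for 5 retinoid genes in the main edgeR fit and under each other setting, with filled points for an adjusted p under 0.05 and a grey line at the main value. Axes do not start at 0, and a missing point marks a gene that the filter removed. All points of a gene lie on one side of 0, and no gene has filled points under all settings.

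Levels of different genes were compared per exon length, in FPKM. Cyp26a1 had a mean of 160 FPKM in SO+ embryos (115 and 206) and 273 FPKM in SO- embryos (296, 289 and 233). That was 15.1 and 32.2 times the next of the 9 genes, and it ranked at percentile 97.2 and 98.6 of all tested genes. In SO+ embryos Crabp1 (10.6 FPKM), Rarg (10.1 FPKM), Crabp2 (9.86 FPKM) and Rara (8.47 FPKM) followed, and each overlapped with the next. A gap separated them from Rxra (1.85 FPKM), Dhrs3 (1.50 FPKM) and Stra6 (0.983 FPKM), which overlapped in turn, and Aldh1a2 was last at 0.114 FPKM. In SO- embryos Rarg (8.48 FPKM), Crabp2 (8.40 FPKM) and Rara (7.44 FPKM) overlapped, Rara did not overlap with Crabp1 (2.97 FPKM), and Crabp1, Dhrs3 (1.36 FPKM), Rxra (1.15 FPKM) and Stra6 (0.941 FPKM) each overlapped with the next. Crabp1 thus had rank 2 in SO+ embryos and rank 5 in SO- embryos.

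**Figure D5:**
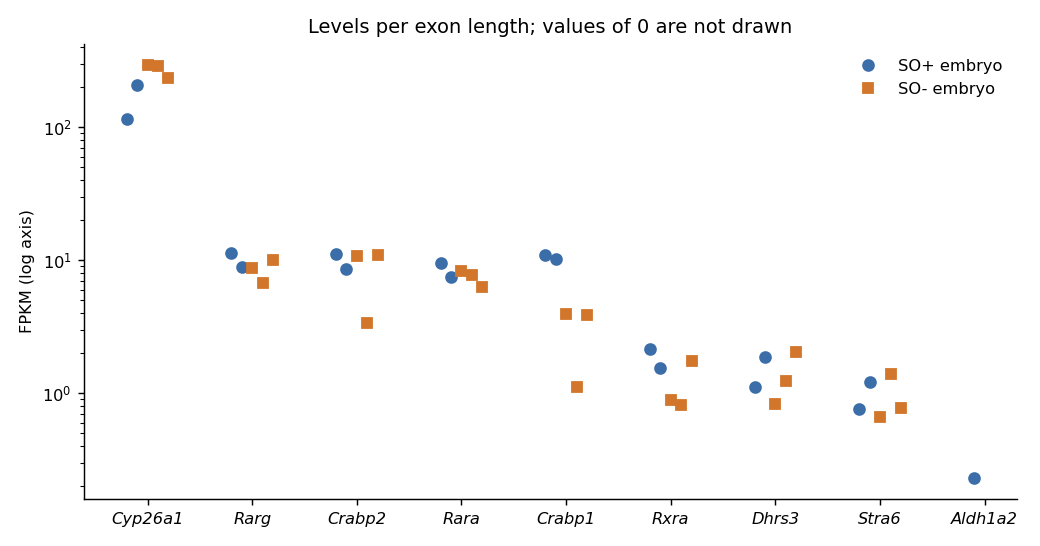
FPKM of the 9 genes on a log axis, with 1 point for each embryo and genes ordered by their mean over 5 embryos. Cyp26a1 lies between 115 and 296 FPKM, no other gene is above 11.2 FPKM, and Aldh1a2 has 1 point because its other values were 0.

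The 3 genes most like Cyp26a1 across embryos were taken from 9305 genes of mean log2 CPM of at least 3, by the Euclidean distance between log2 CPM profiles centred over the 5 embryos. They were Dram2, a factor of autophagy (distance 0.180), Arrdc4, an arrestin family gene (0.234), and Slc39a8, a metal transporter (0.239), against a median distance of 1.18. In each, SO+ embryo 1 was lowest and SO+ embryo 2 next, with Dram2 at 12.9 and 22.1 CPM in them and at 35.1, 31.2 and 23.6 CPM in the SO- embryos. Their log2 fold changes were 0.77, 0.84 and 0.65, and none passed the test (edgeR adjusted p of 0.213, 0.158 and 0.168).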

How the data were processed

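Each library was made from 1 embryo by SmartSeq2, with 15 cycles of pre-amplification and no molecular identifiers, so PCR copies of a molecule were counted too. The authors used cutadapt for adapters, STAR for alignment to mouse genome GRCm38/mm10 and HTSeq-count for counting on Ensembl genes. The deposited values are raw counts per gene. The strand setting of the counting is not given in the sources used here. No exon of the 9 genes, or of the 3 other retinoid genes that passed the test, shares bases with another gene.

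The 9 genes, the wider lists and the markers were chosen with earlier results of these data known, so lists are described by counts and medians without a test over the list. Some genes of these lists are not reported here and were left out of the list counts. Named genes are the 9, the called genes of each list and its 3 most abundant, and the 3 nearest to the gene of lowest p. Rdh10, the RALDH and Hox genes, Cyp26b1, Mesp1, Lhx1, Mixl1, T, Eomes, Tbx6, Fgf5, Sox2, Nanog, Cdx1, Nr2f2 and the element matches were picked after their values were seen.

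Counts were tested in R 4.3.3 with edgeR 4.0.16 (filterByExpr, TMM, quasi-likelihood F test, genotype only, Benjamini-Hochberg over all genes tested, threshold 0.05). The standard error of a log2 fold change is its absolute value over the square root of F. CPM uses TMM-scaled library sizes, and FPKM the total count and the union exon length of GENCODE M21, which matched 99.5% of genes. Exact Poisson intervals (95%) and floors of 3 counts cover counting error only. Alternatives were DESeq2 1.42.0, limma-voom (limma 3.58.1), RLE and upper-quartile factors, no or a stricter low-count filter, the replicate number as a block and each embryo left out. Embryos are separate samples by their labels.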

Additional observations from a re-analysis of the deposited data

How the results depend on the processing

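Other scaling factors changed no call among the 9 genes or the 3 other retinoid genes that passed the test, and moved the median log2 fold change of all genes by less than 0.1. Without a filter on low counts, 1 of the 9 genes passed, Cyp26a1 (0.73, edgeR adjusted p = 0.0471). Limma-voom gave 91 genes over the whole table and 0 of the wider retinoid genes. With at least 10 counts required in every embryo, 1 of the wider retinoid genes passed, Meis2, because the other 2 were no longer tested. As embryos were left out, the count over all genes ranged from 35 to 573, that of the 9 genes from 0 to 1 and that of the wider retinoid genes from 0 to 4. The log2 fold change of Cyp26a1 ranged from 0.40 to 1.25, and those of Dhrs3 (-0.65 to 0.32), Crabp2 (-0.29 to 0.15) and Stra6 (-0.50 to 0.21) changed sign. The cause was not tested. Over its alternatives the adjusted p ranged from 5.76e-10 to 0.407 for Cyp26a1 and from 0.0414 to 0.319 for Crabp1. Both lowest values came from the fit with the replicate number as a block. The order of levels kept at least 7 of 9 ranks. Replicate numbers name different animals, and the labels state no pairing between them. Deviations of same-numbered embryos correlated at 0.0077 and 0.115 across genes. The deviations of the 2 SO+ embryos from their mean mirror each other, so these values cannot show whether same-numbered embryos are paired. With the replicate number as a block nonetheless, 929 genes passed, among them 5 of the wider retinoid genes (Rbp4 and Ttr besides the 3). Of the 9 genes, 2 passed in that fit, Cyp26a1 (0.94, edgeR adjusted p = 5.76e-10) and Crabp1 (-1.87, edgeR adjusted p = 0.0414). SO- embryo 3 stood alone in its block and added nothing to the genotype contrast. The block fit left almost no residual degrees of freedom, so its calls and p-values are not read as support. Depth limits Aldh1a2, Dhrs3, Stra6, Crabp1 and Rxra, which had 40 counts or fewer in each SO- embryo.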
